A study of Mus musculus with 18 samples.

Results

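The 9 genes described here, *Bmp2*, *Bmp4*, *Grem1*, *Smad6*, *Smad7*, *Id1*, *Id2*, *Id3* and *Id4*, are a small circuit of bone morphogenetic protein (BMP) signaling. They were chosen by name as ligands, an antagonist, inhibitory SMADs and Id targets, and all 9 were listed in both expression tables, among 52091 genes listed in at least 1 of them (21959 in the fibroblast table and 51826 in the liver table). The study deleted repeat B of *Xist*, the RNA that coats and silences the inactive X chromosome of female cells, and RNA was sequenced to ask which genes change without it. Read counts were analysed for 4 groups of 3 libraries. They were primary mouse embryonic fibroblasts (MEFs) homozygous for the deletion (RepB-/-), WT MEFs, RepB-/- liver and WT liver.

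The deletion was made by CRISPR/Cas9 in mice, and the methods name ICR as the mouse stock purchased. No group carried a transgene, a Cre driver or a drug treatment according to the labels. The labels give the MEFs the source tissue Tail, and the age of the liver donors is not given in the sources used here. The 6 brain libraries were not analysed here. Nothing in these sources says that the replicates were separate animals or cultures, so the p-values measure the spread between these libraries, which may be technical.

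BMP ligands such as BMP2 and BMP4 bind pairs of serine/threonine kinase receptors, which phosphorylate SMAD1, SMAD5 and SMAD9, and these enter the nucleus with SMAD4. Secreted antagonists such as Gremlin 1 (*Grem1*) capture ligands outside the cell, and the inhibitory SMADs *Smad6* and *Smad7* are induced by the pathway and damp it from inside. The Id genes are direct targets that encode helix-loop-helix proteins without a DNA-binding region, which hold partner factors off DNA. Fibroblasts make and answer BMPs, and in liver endothelial BMP2 and BMP6 drive hepcidin (*Hamp*) in hepatocytes.

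Library totals ran from 11540344 to 20587556 counts in MEFs, where each WT library was shallower than each RepB-/- library, and from 37682201 to 51542709 counts in liver. Summed levels of 8 fibroblast markers were 14136.5 to 17185.9 CPM in RepB-/- and 9682.49 to 12733.7 CPM in WT MEFs, while 8 hepatocyte markers reached at most 2.49 CPM there and at least 112110 CPM in every liver. CPM is counts per 1000000 counts of a library after TMM scaling, and it carries no correction for gene length. Some livers stood apart. Fetal liver markers summed to 5996 and 4776 CPM in replicate 1 of RepB-/- and WT, and to between 5.62 and 27.1 CPM in the other 4 livers. The library labelled RepB-/- replicate 2 held 86.2 CPM of 4 Y-linked genes and 4 counts of *Xist*, whereas the other 5 livers held between 14494 and 26345 counts of *Xist* and at most 0.0292 CPM of the Y-linked genes. That is the pattern of a male liver, and the paper writes the deletion in males as RepB-/Y. The library was kept in the RepB-/- group as labelled, and every liver comparison that includes it carries this limit. The MEF table used here has no row for *Xist*.

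In MEFs, 7 of the 9 BMP genes changed between the genotypes. *Id1*, *Id3*, *Id4* and *Smad6* rose in RepB-/- MEFs, between 1.27-fold and 1.51-fold, and *Bmp2*, *Grem1* and *Smad7* fell, between 1.44-fold and 3.54-fold. *Bmp4* and *Id2* did not pass the test. A gene was called changed at an adjusted p under 0.05 in the quasi-likelihood test of edgeR, adjusted over all genes tested by the Benjamini-Hochberg method. Calls were frequent in these cells, since 39.1% of the 13306 genes tested were called in either direction, 19.4% higher and 19.7% lower. The median log2 fold change was 0.12 over the 9 genes and 0.00030 over all genes tested. The libraries of the genotypes did not overlap for 7 of the 9 genes, against 52.2% of all genes tested.

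**Figure D1:**
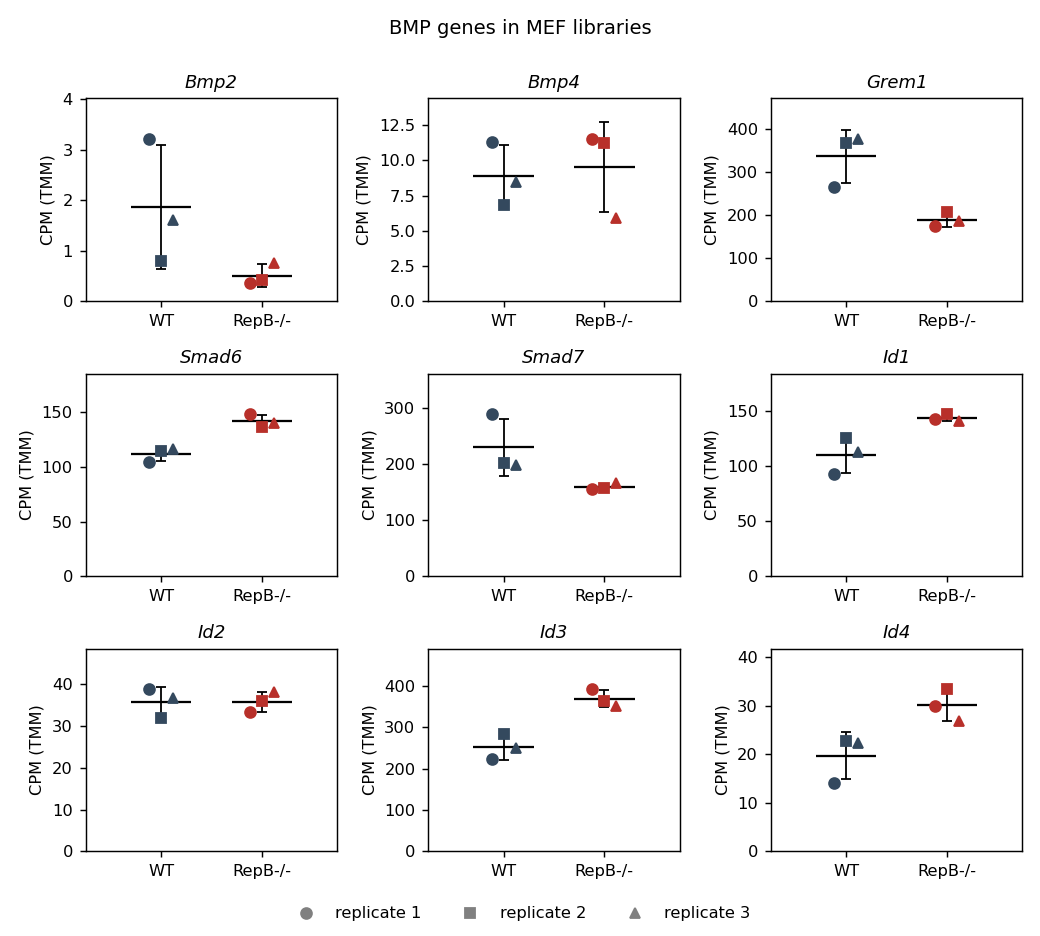
Normalized counts (CPM after TMM scaling, linear axes from 0) of the 9 BMP genes in each MEF library, with 1 point per library, the group mean as a line and 1 SD as the bar. RepB-/- points lie above all WT points for *Id1*, *Id3*, *Id4* and *Smad6*, below all of them for *Bmp2*, *Grem1* and *Smad7*, and among them for *Bmp4* and *Id2*.

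Promoter sequence is shown for 3 of the genes that changed in MEFs, the antagonist, which fell, and an inhibitory SMAD and an Id gene, which both rose. Each run is the 250 bases before the RefSeq start, written 5′ to 3′ along the gene. Capitals mark GGCGCC, the GC-rich word known from BMP-responsive enhancers of Id genes, and GTCTG or its complement CAGAC, the classical SMAD box.
*Grem1*, chr2:113758649-113758898, minus strand: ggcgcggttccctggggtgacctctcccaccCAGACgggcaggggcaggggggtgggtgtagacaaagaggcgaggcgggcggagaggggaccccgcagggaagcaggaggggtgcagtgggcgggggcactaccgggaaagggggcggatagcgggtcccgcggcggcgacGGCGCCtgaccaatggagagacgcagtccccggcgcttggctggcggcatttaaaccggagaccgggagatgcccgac
*Smad6*, chr9:64022060-64022309, minus strand: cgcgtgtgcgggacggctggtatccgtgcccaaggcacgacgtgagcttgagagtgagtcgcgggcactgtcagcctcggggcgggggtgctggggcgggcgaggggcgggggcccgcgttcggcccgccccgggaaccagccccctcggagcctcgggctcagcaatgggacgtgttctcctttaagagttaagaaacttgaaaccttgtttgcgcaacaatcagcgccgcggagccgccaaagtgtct
*Id4*, chr13:48260866-48261115, plus strand: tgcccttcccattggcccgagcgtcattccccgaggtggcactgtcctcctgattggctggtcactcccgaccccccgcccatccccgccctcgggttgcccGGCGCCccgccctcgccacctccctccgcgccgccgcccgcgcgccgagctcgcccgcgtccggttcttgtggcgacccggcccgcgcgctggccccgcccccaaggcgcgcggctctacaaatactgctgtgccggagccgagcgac
The sequences are from RefSeq on GRCm38.p6. Windows of 6 of the 9 genes were read, without *Bmp2*, *Id1* and *Smad7*, and both strands were searched. *Grem1* held 1 GGCGCC and 1 CAGAC, which did not overlap, *Id4* and *Id2* held 1 GGCGCC each, *Id3* held GTCTG and CAGAC once each and no GGCGCC, and neither word occurred in these 250 bases of *Smad6* or *Bmp4*. Of all 32851 such windows, 9.59% held GGCGCC and 42.2% held GTCTG on either strand. TATAAA, the TATA box, occurred in 12.4% of all windows and in none of the 6. GGCGCC was present beside *Id2*, which did not pass the test in MEFs, and absent beside *Id3* and *Smad6*, which rose. These matches describe the letters alone, and whether any of them acts on its gene was not tested.

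*Bmp2* (chromosome 2, 133394079 to 133404805, GRCm39, plus strand), a ligand with a strong osteogenic action, was near the limit of detection in MEFs. It held 0.357, 0.413 and 0.760 CPM in RepB-/- replicates 1 to 3 and 3.21, 0.804 and 1.60 CPM in WT replicates 1 to 3, from 7 to 40 reads per library. The groups did not overlap, although RepB-/- replicate 3 and WT replicate 2 were close, and WT replicate 1 was high. The log2 fold change was -1.82 (SE 0.520, edgeR adjusted p = 0.013). This call was lost when RepB-/- replicate 1 (-1.62, adjusted p = 0.062), RepB-/- replicate 2 (-1.69, adjusted p = 0.058) or WT replicate 1 (-1.23, adjusted p = 0.058) was left out.

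*Bmp4* (chromosome 14, 46620977 to 46628126, minus strand), the ligand that patterns ventral mesoderm, held 11.5, 11.3 and 5.88 CPM in RepB-/- and 11.3, 6.86 and 8.44 CPM in WT MEFs. The genotypes overlapped over most of their range. The log2 difference of 0.12 had a 95% interval from -0.39 to 0.63 (edgeR adjusted p = 0.72), which leaves room for a change of about the size seen for the Id genes. *Bmp4* shares exonic bases with *Gm15217* on the other strand, and *Id4* with *A330033J07Rik* and *Gm49291*. The strand setting of the counting is not given in the sources used here, so reads from such pairs may be mixed.

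*Grem1* (chromosome 2, 113576509 to 113588991, minus strand) encodes the secreted antagonist of BMP2 and BMP4. It held 175, 207 and 186 CPM in RepB-/- MEFs and 266, 368 and 376 CPM in WT MEFs. Every RepB-/- library lay below every WT library, and the means were 189 ± 16.0 and 337 ± 61.6 CPM (SD, n = 3 each). *Grem1* was thus 1.78-fold lower, a log2 fold change of -0.83 (SE 0.114, edgeR adjusted p = 1.1e-04). In bulk samples, fewer cells of an expressing type and less RNA per cell cannot be told apart, and this holds for every difference given here.

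The inhibitory SMADs moved in opposite directions in MEFs. *Smad6* (chromosome 9, 63860358 to 63929341, minus strand), which acts mainly on BMP receptors and their SMADs, held 148, 136 and 140 CPM in RepB-/- and 105, 114 and 117 CPM in WT, and rose 1.27-fold (log2 0.34, SE 0.071, edgeR adjusted p = 0.0020). *Smad7* (chromosome 18, 75500600 to 75529006, plus strand), which restrains both BMP and TGF-β receptors, held 155, 158 and 166 CPM in RepB-/- and 289, 201 and 199 CPM in WT. It fell 1.44-fold (log2 -0.52, SE 0.117, edgeR adjusted p = 0.0032). Neither gene's groups overlapped, and WT replicate 1 was the highest for *Smad7* and the lowest for *Smad6*. Without WT replicate 1 the *Smad7* change was -0.32 with an adjusted p of 2.0e-04. Within single libraries the CPM of *Smad6* was 0.848 to 0.955 of that of *Smad7* in RepB-/- MEFs and 0.363 to 0.586 of it in WT MEFs, and these ranges did not overlap.

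*Id3* (chromosome 4, 135870808 to 135873066, plus strand) was the Id gene with the highest level. It held 392, 363 and 352 CPM in RepB-/- MEFs and 223, 284 and 251 CPM in WT MEFs. The lowest RepB-/- library lay clear of the highest WT library, with means of 369 ± 20.6 and 252 ± 30.5 CPM (SD, n = 3 each). *Id3* rose 1.46-fold (log2 0.55, SE 0.088, edgeR adjusted p = 3.4e-04).

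*Id1* (chromosome 2, 152578171 to 152579330, plus strand), the usual readout of BMP receptor activity in cultured cells, held 143, 147 and 141 CPM in RepB-/- MEFs and 92.7, 125 and 113 CPM in WT MEFs. The RepB-/- libraries lay close together and above all WT libraries. *Id1* rose 1.30-fold (log2 0.38, SE 0.093, edgeR adjusted p = 0.0057). Over the 12 libraries, after the WT mean of each tissue was removed, the 3 genes nearest to *Id1* were *Mageh1*, *Pcdhb18* and *Plekha1*, with root mean square differences of 0.156, 0.200 and 0.205 in log2 CPM, where the median over 11978 genes was 0.723. Among the BMP genes *Smad6* came nearest, at 0.342, and this likeness is a description over libraries that share their depth and tissue.

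*Id4* (chromosome 13, 48414704 to 48419502, plus strand), an Id gene best known from neural and osteoblast lineages, held 29.9, 33.4 and 27.0 CPM in RepB-/- MEFs and 14.1, 22.8 and 22.3 CPM in WT MEFs. The groups did not overlap, and WT replicate 1 was the lowest of the 6. *Id4* rose 1.51-fold (log2 0.60, SE 0.150, edgeR adjusted p = 0.0065). *Id2* (chromosome 12, 25143798 to 25147139, minus strand), which is also driven by signals other than BMP, held 33.2, 35.9 and 38.0 CPM in RepB-/- and 38.7, 32.0 and 36.5 CPM in WT. Its groups overlapped fully. The log2 difference of 0.00038 had a 95% interval from -0.20 to 0.20 (edgeR adjusted p = 1.00), so a change as large as that of *Id1*, *Id3* or *Id4* lies outside it.

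Levels were compared between genes per length, as FPKM (fragments per kilobase, scaled to depth). In RepB-/- MEFs the order from the top was *Id3* (198 FPKM), *Id1* (119), *Grem1* (43.8), *Smad6* (42.5), *Smad7* (33.9), *Id2* (14.1), *Id4* (7.52), *Bmp4* (4.09) and *Bmp2* (0.138). Only *Grem1* and *Smad6* overlapped among neighbours in that order. In WT MEFs *Id3* (146 FPKM) and *Id1* (98.3) also led, followed by *Grem1* (84.0), *Smad7* (53.0), *Smad6* (36.2), *Id2* (15.3), *Id4* (5.30), *Bmp4* (4.12) and *Bmp2* (0.556). There *Grem1* overlapped *Id1*, and *Bmp4* overlapped *Id4*. *Smad6* and *Smad7* thus held opposite places in the genotypes' orders of mean level.

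Other cell type markers differed between the same MEF libraries. Of 8 fibroblast markers 4 were called higher and 1 lower. Smooth muscle markers summed to 2161.59 to 2589.23 CPM in RepB-/- and 3227.47 to 4915.62 CPM in WT, with 4 of 8 called lower. Endothelial markers summed to 22.9 to 25.4 CPM in RepB-/- and 36.6 to 46.0 CPM in WT, with 4 of 5 tested called lower, 1 higher and *Clec4g* at 0 in every library. Keratinocyte markers summed to 6.99 to 13.0 CPM in RepB-/- and 5.61 to 6.80 CPM in WT, with 1 of 5 tested called higher. Their part in the BMP results was not tested.

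The wider pathway was followed through 60 genes in 5 lists, of which 51 are not among the 9 genes above. In MEFs 47 were tested, and 30 were called (17 higher, 13 lower), which is 63.8% against the 39.1% of all genes. Without RepB-/- replicate 2 the count was 19 of 49 tested, or 38.8%, against 29.2% of all genes in that fit. Of the 38 tested genes that were not among the 9, 13 rose and 10 fell, and their median log2 fold change was -0.024.

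**Figure D2:**
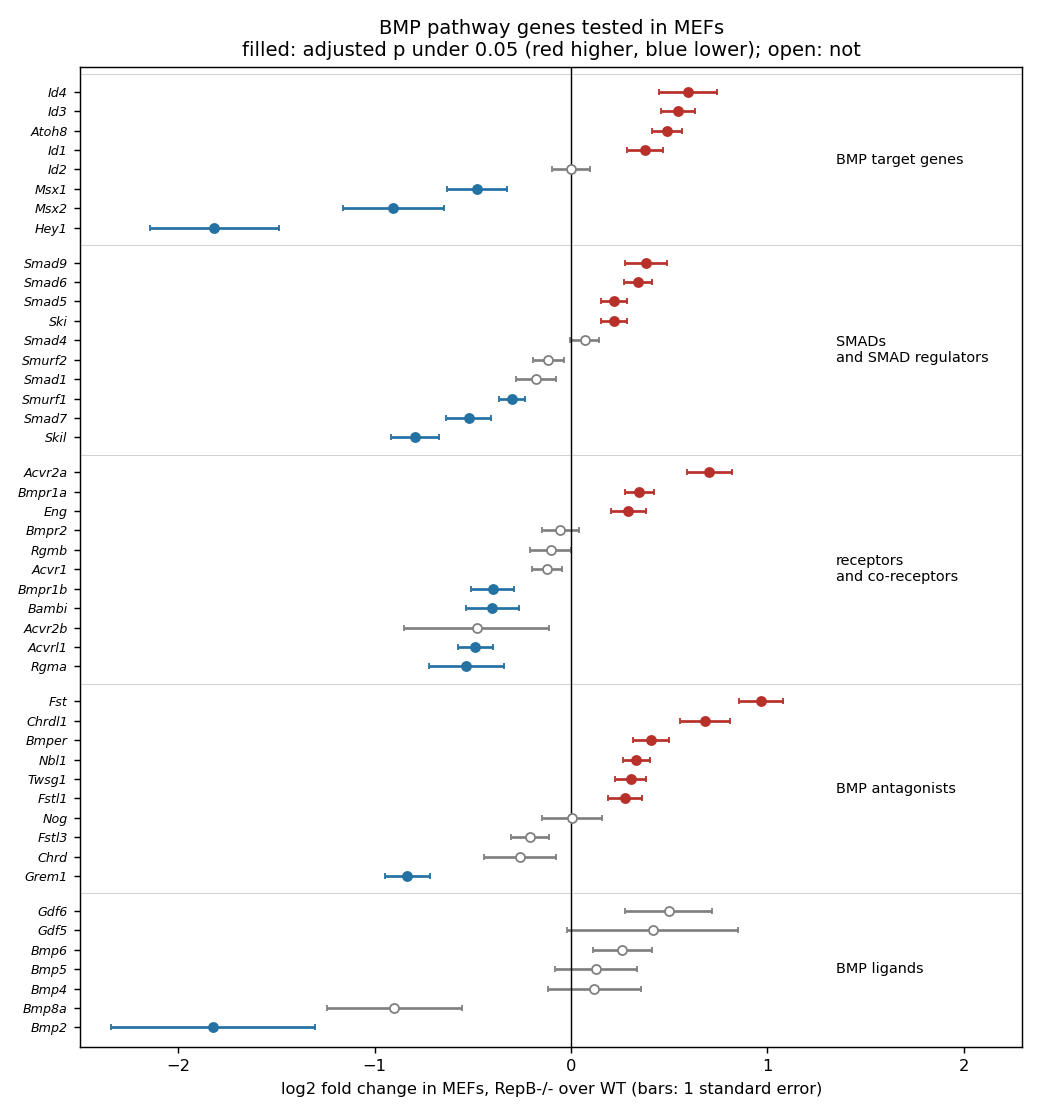
Log2 fold changes (RepB-/- over WT) of BMP pathway genes tested in MEFs, grouped by list and ordered by size, with bars of 1 SE and filled points for an adjusted p under 0.05. *Bmp2* and *Hey1* lie farthest below 0, at -1.82 each, and *Fst* lies farthest above it, at 0.97.

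Of 7 ligands tested, edgeR called *Bmp2* alone. *Bmp8a*, a germ line and fat ligand, held 1.48, 1.14 and 1.11 CPM in RepB-/- and 2.97, 2.60 and 1.49 CPM in WT MEFs, and was just outside the threshold (log2 -0.90, adjusted p = 0.051). It passed with DESeq2 size factors (0.049) and without the filter on low counts (0.046). *Bmp6*, a ligand of the iron axis in liver, held 9.87 to 12.7 CPM in RepB-/- and 8.34 to 9.86 CPM in WT MEFs (log2 0.26, edgeR adjusted p = 0.18). *Gdf6*, a joint and skull patterning ligand, held 5.37 to 10.7 and 5.63 to 6.36 CPM, with an adjusted p of 0.092, or 0.013 without the filter. *Bmp7*, at 0 to 5 counts per library, was below the edgeR filter and was called lower by DESeq2 (adjusted p = 0.047) and without the filter (0.038). The list's median log2 fold change was 0.13.

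Of 11 antagonists tested, 6 rose and 2 fell, with a median log2 fold change of 0.28. *Fst*, which encodes the activin and BMP binding protein follistatin, held 111, 95.3 and 77.5 CPM in RepB-/- and 47.0, 46.1 and 51.7 CPM in WT MEFs. It rose by 0.97 on the log2 scale (SE 0.112, edgeR adjusted p = 3.0e-05), with no overlap. *Chrdl1*, a chordin-like antagonist whose gene lies on the X chromosome, rose by 0.68, *Bmper*, a BMP-binding endothelial regulator, by 0.41 and *Nbl1*, a relative of Gremlin, by 0.33. *Fstl1*, a secreted follistatin-like glycoprotein, was the most abundant by CPM (1750 to 1913 in RepB-/-, 1354 to 1627 in WT) and rose by 0.28 on the log2 scale.

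The 11 receptors and co-receptors tested split into 3 that rose and 4 that fell, with a median log2 fold change of -0.12. *Acvr2a*, a type II receptor for activins and BMPs, held 28.3, 32.2 and 32.1 CPM in RepB-/- and 20.6, 15.7 and 20.6 CPM in WT MEFs (log2 0.71, SE 0.116, edgeR adjusted p = 4.0e-04). *Acvrl1*, the BMP9 receptor ALK1 of endothelium, fell by 0.49 on the log2 scale, and its co-receptor *Eng* rose by 0.29. *Rgma*, a BMP co-receptor, fell by 0.53 and *Bambi*, a decoy receptor, by 0.40, and both calls were lost in DESeq2 (adjusted p of 0.051 and 0.058). *Bmpr2*, the type II BMP receptor, held 87.4 to 109 CPM in RepB-/- and 93.8 to 113 CPM in WT, and did not pass the test (log2 -0.05, adjusted p = 0.68).

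Of 10 SMADs and SMAD regulators, all tested, 4 rose and 3 fell, with a median log2 fold change of -0.023. *Skil*, a SMAD corepressor that TGF-β signaling induces, held 57.0, 66.5 and 71.1 CPM in RepB-/- and 139, 94.0 and 105 CPM in WT MEFs (log2 -0.79, SE 0.124, edgeR adjusted p = 2.9e-04). Like *Smad7*, it was highest in WT replicate 1. Its relative *Ski* rose by 0.22 on the log2 scale. The ubiquitin ligase *Smurf2*, which removes SMADs and receptors, had an adjusted p of 0.27.

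Of 8 target genes tested, 4 rose and 3 fell, with a median log2 fold change of 0.19. *Hey1*, a repressor induced by both Notch and BMP, held 0.917, 0.878 and 1.42 CPM in RepB-/- and 5.21, 2.91 and 3.39 CPM in WT MEFs (log2 -1.82, SE 0.330, edgeR adjusted p = 8.1e-04). The homeobox genes *Msx2* and *Msx1* fell by 0.90 and 0.48 on the log2 scale. *Atoh8*, a helix-loop-helix factor, held 180, 170 and 161 CPM in RepB-/- and 110, 131 and 122 CPM in WT, and rose by 0.49 (SE 0.079, adjusted p = 3.4e-04). The targets therefore did not move one way, with *Id1*, *Id3*, *Id4* and *Atoh8* higher and *Hey1*, *Msx1* and *Msx2* lower. The calls of *Bmp2*, *Fstl1*, *Twsg1*, *Bmpr1b*, *Eng*, *Rgma*, *Bambi*, *Smad5*, *Ski*, *Msx1* and *Msx2* were each lost when at least 1 single library was left out.

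In liver, none of the 8 BMP genes tested was called. With edgeR 0 of 8 passed, 0 had an unadjusted p under 0.05, where 3.12% of all genes tested did, and DESeq2 also called 0. Few genes were called at all in liver, 0.0373% of 16080 (0.00622% higher and 0.0311% lower), and the spread between livers was wide, with a biological coefficient of variation of 51.2% against 9.06% in MEFs. The log2 fold change was below 0 for 7 of the 8 genes and for 7781 of all 16080 genes tested, with medians of -0.39 and 0.012. The 8 genes were read in the same 6 livers, so their directions are not independent. The genotypes did not overlap for 2 of the 9 genes, *Bmp2* and *Id2*, against 8.05% of all genes tested. Compared within replicate numbers, RepB-/- was below WT in 3 of 3 for *Bmp2*, *Id2* and *Smad6*, above it in 3 of 3 for *Bmp4*, and mixed for *Id1*, *Id3*, *Id4* and *Smad7*. The share of all genes that agree in 3 of 3 was not computed, so such counts, here and below, are descriptions only. With replicate number as a block, 0 of 8 were called, and the smallest adjusted p was 0.71, for *Bmp2*.

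**Figure D3:**
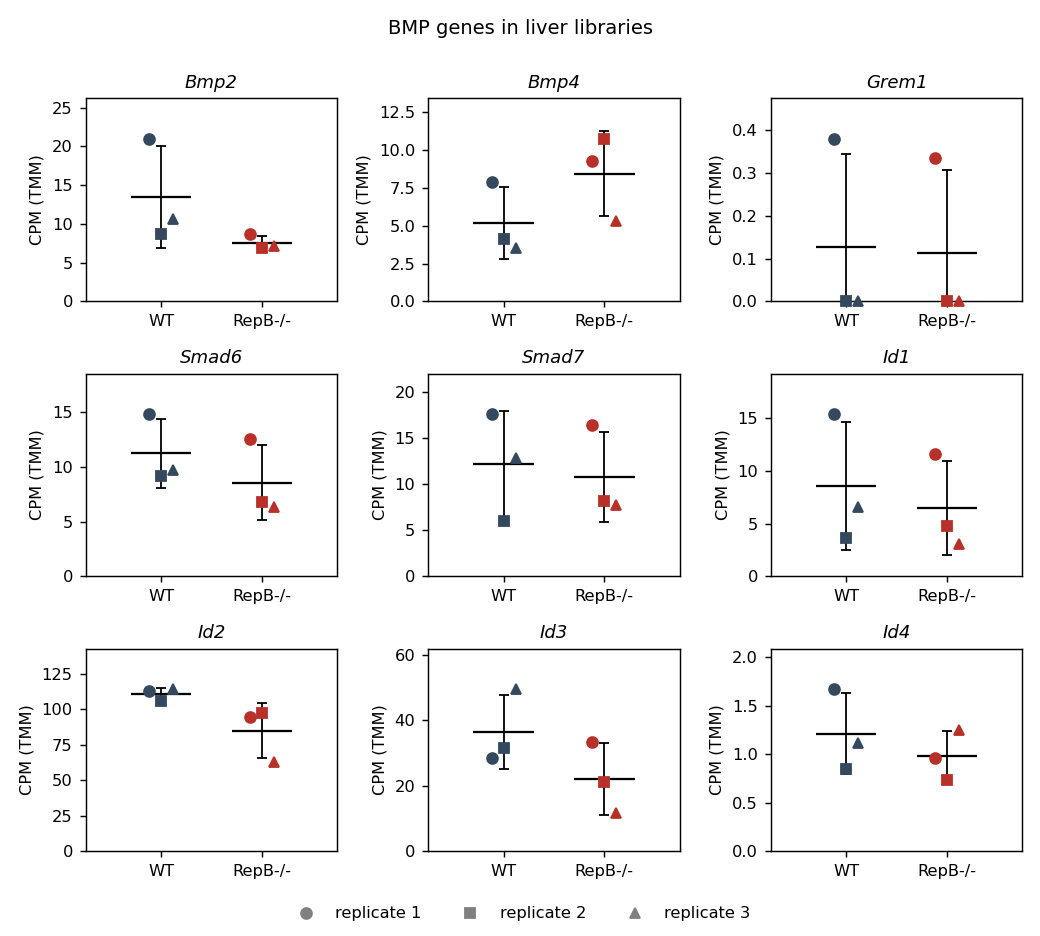
Normalized counts (CPM after TMM scaling, linear axes from 0) of the 9 BMP genes in each liver library, with 1 point per library, the group mean as a line and 1 SD as the bar. Circles, the replicate 1 livers that hold fetal liver transcripts, lie on top in both genotypes for *Grem1*, *Id1*, *Smad6* and *Smad7*.

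*Bmp2*, which liver endothelium secretes, held 8.63, 6.93 and 7.12 CPM in RepB-/- and 20.9, 8.73 and 10.6 CPM in WT livers. All RepB-/- livers lay just below the lowest WT liver, and WT replicate 1 was far above the rest. The log2 difference was -0.83 (SE 0.364, 95% interval -1.70 to 0.04, edgeR adjusted p = 1.00), and -0.46 in replicates 2 and 3 alone. The endothelial markers summed to 417, 282 and 345 CPM in RepB-/- and 467, 278 and 289 CPM in WT livers, so WT replicate 1 was highest for them too, and their part was not tested.

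*Bmp4* was the one gene above 0 in liver. It held 9.28, 10.7 and 5.31 CPM in RepB-/- and 7.90, 4.13 and 3.53 CPM in WT livers. The groups overlapped through RepB-/- replicate 3 and WT replicate 1, with a log2 difference of 0.70 (95% interval -0.31 to 1.72). *Grem1* was read only in replicate 1, with 17 counts in each genotype and 0 in the other 4 livers. A count of 0 allows up to 0.0596 to 0.0875 CPM in those libraries, for counting error alone, and the gene was too low to be tested.

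*Smad6* held 12.5, 6.79 and 6.33 CPM in RepB-/- and 14.8, 9.12 and 9.72 CPM in WT livers, a log2 difference of -0.39 (95% interval -1.24 to 0.46). *Smad7* held 16.4, 8.12 and 7.73 CPM in RepB-/- and 17.6, 6.04 and 12.9 CPM in WT livers, a log2 difference of -0.18 (95% interval -1.30 to 0.95). For both genes the replicate 1 livers were above the other 4, whichever the genotype. *Id1* followed the same pattern, with 11.6, 4.77 and 3.12 CPM in RepB-/- and 15.4, 3.69 and 6.61 CPM in WT livers. Its log2 difference of -0.40 had a 95% interval from -2.0 to 1.20. The gap between replicate 1 and the other livers, 2.97-fold in mean CPM, was wider than the gap between the genotypes, 1.32-fold by the fitted difference.

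*Id2* held 94.9, 97.3 and 63.1 CPM in RepB-/- and 113, 106 and 114 CPM in WT livers. The genotypes did not overlap, with RepB-/- replicate 3 the lowest (log2 -0.38, 95% interval -0.94 to 0.17). *Id3* held 33.5, 21.1 and 11.8 CPM in RepB-/- and 28.4, 31.5 and 49.6 CPM in WT livers. Its groups overlapped because RepB-/- replicate 1 exceeded WT replicates 1 and 2, and its log2 difference was -0.72 (95% interval -1.71 to 0.27), or -1.29 in replicates 2 and 3 alone (edgeR adjusted p = 0.40). *Id4* was low throughout, between 0.735 and 1.67 CPM, and the ranges of the genotypes overlapped.

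Per length, *Id2* led the 9 genes in liver, at 39.8 FPKM in RepB-/- and 66.2 FPKM in WT, above *Id3* at 16.5 and 28.9 FPKM and *Id1* at 6.24 and 9.11 FPKM, and in RepB-/- livers each of these overlapped the gene above it. In the MEFs *Id3* led and *Id2* came after both inhibitory SMADs. *Bmp4*, *Smad6*, *Smad7* and *Bmp2* lay between 1.84 and 3.76 FPKM in the liver groups, and each overlapped its neighbour in the order. *Id4* (0.496 and 0.706 FPKM) and *Grem1* (0.0248 and 0.0305 FPKM) were lowest in RepB-/- and WT. Levels of the MEF and liver tables were made separately, so these orders are set side by side with no test.

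**Figure D4:**
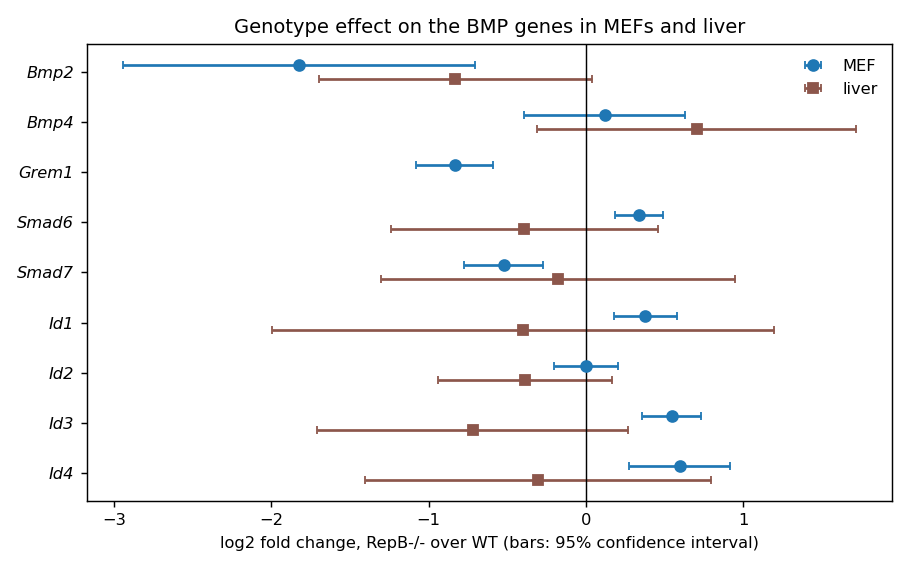
Log2 fold changes (RepB-/- over WT) of the BMP genes in MEFs (circles) and liver (squares) with 95% confidence intervals, with no liver value for *Grem1*, which was not tested there. *Id1*, *Id3*, *Id4* and *Smad6* lie above 0 in MEFs and below 0 in liver, where every interval includes 0.

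Whether the genotype effect differed between the tissues was tested directly, as an interaction over the 12 libraries. None of the 9 BMP genes was called, against 0.388% of 15208 genes, in edgeR, in limma voom and with the replicate block, and 1 had an unadjusted p under 0.05 in edgeR, where 14.2% of all genes did. A count of 1 in 9 is no more than that share. The gene was *Id3*, whose log2 effect was 1.27 higher in MEFs than in liver (SE 0.459, 95% interval 0.26 to 2.29, unadjusted p = 0.019, edgeR adjusted p = 0.24). *Id4* (0.91, SE 0.422, adjusted p = 0.37) and *Smad6* (0.73, SE 0.344, adjusted p = 0.37) came next on the same side. *Bmp2* differed by -1.01 (SE 0.681, adjusted p = 0.55). With replicate number as a block, the adjusted p of *Smad6* was 0.090.

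In the wider pathway in liver, 0 of 48 genes tested were called by edgeR or by DESeq2, and 1, *Acvr2b*, had an unadjusted p under 0.05 in edgeR. Of all 16080 genes tested 3.12% did, and 1 in 48 is no more than that share. The median log2 fold change was -0.019 over these 48 genes and -0.52 over the 8 targets tested, of which 7 were below 0. Of all 16080 genes tested 7781 were below 0, and the targets include the Id genes already counted above. The genes of the hepatic iron axis showed wide gaps between libraries. *Hamp*, the iron hormone hepcidin that BMP and SMAD signaling induces in hepatocytes, held 873, 0 and 0 counts in RepB-/- and 1029, 7013 and 23849 counts in WT livers (17.2, 0 and 0 against 23.0, 181 and 504 CPM). All RepB-/- livers lay below all WT livers. In replicates 2 and 3 *Hamp* was at least 2070-fold lower in RepB-/-, taken as the lower WT library, at 181 CPM, over the higher limit that 3 counts give in the RepB-/- libraries, 0.0875 CPM. This bound covers counting error alone and not the spread between livers. The libraries for it were picked after the values were seen, and RepB-/- replicate 2 among them held Y-linked counts. In replicate 1 the genotypes were close. Over all 6 livers the edgeR adjusted p was 1.00, and in replicates 2 and 3 alone it was 0.088.

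*Hamp2*, the mouse paralog of *Hamp*, held 382, 4 and 4 counts in RepB-/- and 45, 3002 and 4520 counts in WT livers (7.54, 0.0794 and 0.117 against 1.00, 77.5 and 95.5 CPM). Replicate 1 ran the other way from replicates 2 and 3, so the groups overlapped. In replicates 2 and 3 alone *Hamp2* was the one pathway gene called (log2 -9.78, edgeR adjusted p = 0.0034). Of all 16019 genes in that fit 0.0125% were called. That split was chosen after the values were seen and leaves out the replicate that ran the other way, so the call is a description only. Over all 6 livers the adjusted p of *Hamp2* was 1.00. *Hamp* and *Hamp2* are neighbouring paralogs, and how the counting treated reads that match both is not known. Exons of *Hamp2* share bases with *Gm44662* on the other strand. RepB-/- replicates 2 and 3, both low for the hepcidin genes, held 86.2 and 0.0292 CPM of Y-linked genes. The part of donor sex was not tested.

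**Figure D5:**
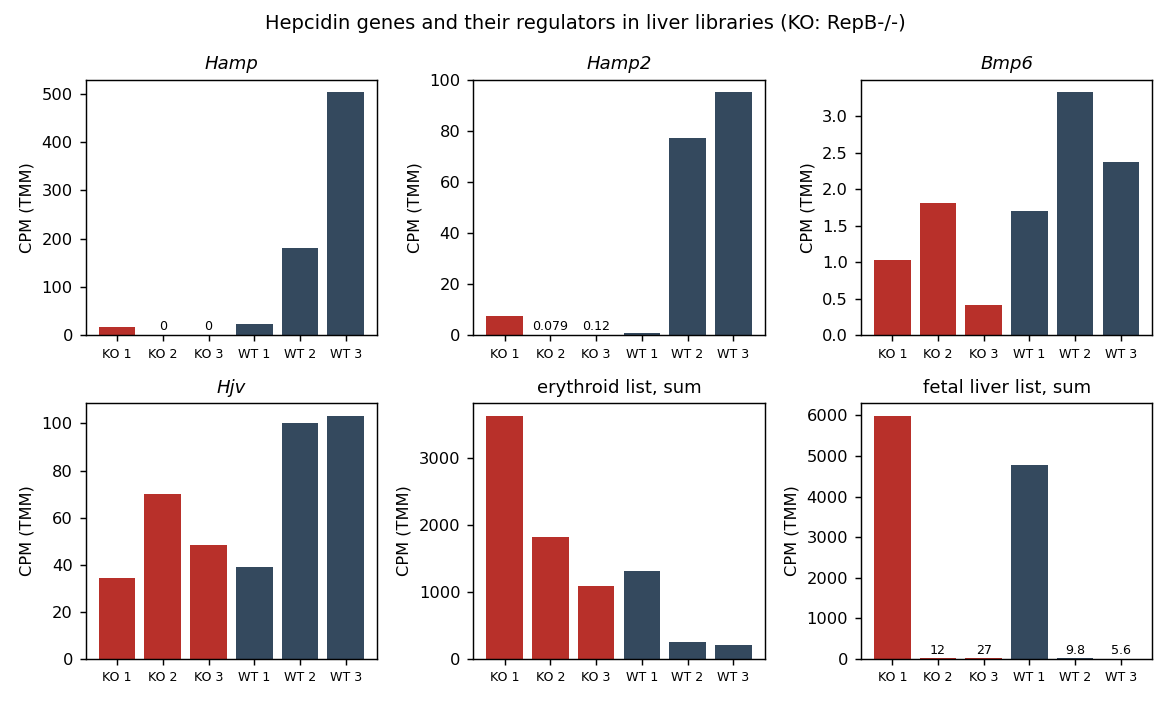
CPM (TMM, linear axes from 0) in each liver library of *Hamp*, *Hamp2*, the ligand *Bmp6* and the co-receptor *Hjv*, and summed CPM of the erythroid and fetal liver marker lists, with KO standing for RepB-/-. WT replicates 2 and 3 are high for both hepcidin genes and low for the erythroid list, and both replicate 1 livers are high for the fetal liver list.

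The upstream genes of this axis had lower means in RepB-/- livers and did not pass the test. *Bmp6*, the endothelial ligand that rises with iron, held 1.03, 1.81 and 0.408 CPM in RepB-/- and 1.70, 3.33 and 2.37 CPM in WT livers (log2 -1.18, 95% interval -2.64 to 0.28). *Hjv*, the hemojuvelin co-receptor for BMPs on hepatocytes, held 34.4, 70.1 and 48.2 CPM in RepB-/- and 38.9, 100 and 103 CPM in WT livers (log2 -0.67, 95% interval -1.71 to 0.37). Both overlapped through the replicate 1 WT liver, although RepB-/- was below WT in all 3 replicate numbers for each. *Atoh8*, another hepatic BMP target, held 16.5, 6.69 and 5.43 CPM in RepB-/- and 20.5, 9.17 and 14.7 CPM in WT (log2 -0.63), also lower in 3 of 3 replicate numbers, and *Bambi* differed by 0.01 on the log2 scale.

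Erythroid markers, which include globin genes, also differed between these livers. They summed to 3640, 1818 and 1092 CPM in RepB-/- and 1308, 254 and 213 CPM in WT livers, with 0 of 7 tested genes called. RepB-/- was above WT for this list in all 3 replicate numbers. Among the RepB-/- livers, replicate 1 had both the highest erythroid sum and the highest *Hamp* and *Hamp2*. Hepatocyte markers summed to 122669 to 197933 CPM in RepB-/- and 112110 to 145613 CPM in WT livers, and macrophage markers to 462 to 603 and 464 to 1058 CPM. Fibroblast markers summed to 1349, 468 and 381 CPM in RepB-/- and 892, 296 and 257 CPM in WT livers. Hepatic stellate markers summed to 217 to 404 and 253 to 325 CPM. Their part in the liver results was not tested.

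The most abundant other pathway genes in liver differed less between genotypes. *Gdf2*, which encodes BMP9 and is made in liver, held 37.5, 28.6 and 31.1 CPM in RepB-/- and 44.8, 25.8 and 25.8 CPM in WT (log2 0.01, 95% interval -0.64 to 0.66). *Bmp10*, its close relative, held 14.6, 4.15 and 9.98 CPM and 14.7, 2.63 and 3.30 CPM, with replicate 1 highest in both genotypes. *Twsg1*, an extracellular BMP modulator, did not overlap between genotypes (51.9 to 57.3 CPM in RepB-/- against 43.7 to 51.4 CPM in WT, log2 0.21). The differences for *Eng*, *Fstl1*, *Ski* and *Smurf2* were 0.19, 0.16, -0.24 and -0.03 on the log2 scale, each with an interval that includes 0.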

How the data were processed

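The deposited tables hold, for 12 libraries, whole-number read counts per gene made by the authors without normalization, and FPKM values that the authors scaled to gene length and depth. The methods name Cutadapt and Hisat2 with stranded paired-end mRNA libraries, whereas the submitters' processing notes list Trim Galore 0.4.1, STAR 2.7.0, HTSeq 0.12.4 and DESeq2. Which of these made which table is not given in the sources used here. MEF coordinates are GRCm39 and liver coordinates GRCm38. The 6 unused per-library columns (liver TPM) and the authors' columns of fold changes and p-values were not read.

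Counts were tested within each tissue by edgeR 4.0.16 in R 4.3.3 (TMM, filterByExpr defaults, glmQLFit and glmQLFTest, RepB-/- minus WT) at a Benjamini-Hochberg adjusted p of 0.05 over all genes tested. The tissue by genotype interaction was fitted over genes listed in both tables. DESeq2 1.42.0 and limma 3.58.1 voom were alternatives, as were DESeq2 size factors, TMM over autosomal genes, no count filter, a term for liver replicate 1 and each library left out. The fits were tested on simulated data, in which liver and the interaction were given less spread than the livers showed. That test therefore does not measure how many changes the liver and interaction fits miss. Counts measure depth with counting error only, and a limit for 0 is 3 counts.

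Groups and replicate numbers came from the library labels. Deviations of same-numbered libraries from their group means correlated at -0.011, -0.042 and -0.0035 in MEFs, which gives no pairing. In liver they correlated at 0.71, 0.36 and 0.37. Correlations across different numbers were not computed, and both replicate 1 livers held fetal liver transcripts. These values therefore cannot show that same-numbered livers were pairs. The genes and lists were chosen with earlier results of these data known. Named were the 9 genes, in MEFs the 12 other pathway genes with the largest called changes and at least 1 CPM, the hepatic iron genes in liver, and the 2 most abundant other genes of each list. Genes whose calls were lost were named after their values were seen, as were *Acvr2b* and *Smad5*. The values of 1 pathway gene are not reported here, although it is counted in its list. *Hjv* is named Hfe2 in the liver table.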

Additional observations from a re-analysis of the deposited data

How the results depend on the processing

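Of 337 values of the 9 BMP genes under alternatives, 321 kept their direction and their side of the threshold, and of 64 counts of called genes 62 stayed within 1.5 times the reported count. The cause of the exceptions was not tested. The MEF count of BMP genes was between 6 and 7 with single libraries left out, and the pathway count between 19 (without RepB-/- replicate 2) and 29. In replicates 2 and 3 of liver, an alternative chosen after seeing the data, 1 pathway gene was called. With replicate number as a block, 7 BMP genes and 30 pathway genes were called in MEFs and 0 in liver, and the block changed no call. Over all genes in liver, DESeq2 called 34 higher and 46 lower, against 1 and 5 in edgeR. No gene was called without the filter on low counts, and single libraries left out gave at most 1 and 3. The replicate block gave 3 and 5, and a replicate 1 term gave 3 and 6. That term without RepB-/- replicate 2, a fit that kept both replicate 1 livers, gave 1 and 2. Replicates 2 and 3 alone gave 1 and 1. For the interaction over all genes, the block called 45 higher and 147 lower and limma voom 10 and 29, against 18 and 41, and leaving out single libraries gave between 1 and 0 (without MEF RepB-/- replicate 1) and 153 and 275 (without liver WT replicate 1). The directions that turned belonged to values near 0 or with wide intervals. *Id2* in MEFs was -0.0075 with DESeq2 size factors and -0.075 to 0.060 with libraries left out, and *Bmp4* in MEFs was -0.036 to 0.38. In liver *Id1* ranged from -1.11 to 0.34 and *Smad7* from -0.61 to 0.19 with libraries left out, and *Id4* was 0.0043 in replicates 2 and 3. The interaction of *Grem1* ranged from -6.17 to 4.59 and that of *Smad7* from -0.70 to 0.12. Depth limited *Bmp2* in MEFs and *Grem1* in liver.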
